A study of Mus musculus with 8 samples.

Results

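The mouse Hox genes were read out in the S0 cells of WT and DKO fetal livers. The set was made of the protein-coding genes whose symbol is Hox followed by a cluster letter from a to d and a paralog number from 1 to 13, and it held 39 of the 52636 gene identifiers in the count table. S0 cells are the least mature cells that FACS separates from the fetal liver along the erythroid lineage: they are negative for CD71 and Ter119 and for a cocktail of lineage markers of lymphoid and myeloid cells, and that cocktail held no antibody against stromal, mesothelial or hepatic cells. RNAseq libraries of polyA RNA were made by template switching from S0 cells of embryos at E12.5, a stage named by days after conception, from 4 samples labelled wild type (WT) and 4 samples labelled as Vps13a/Vps13c double knockout (DKO), all in the C57BL/6J background. Both knockouts are constitutive and affect the whole body, the one of Vps13a through removal of an exon with a Cre driven by the beta-actin promoter. The parents of DKO embryos all lacked Vps13c, so that WT embryos cannot have been their littermates, and litter and genotype cannot be told apart. The labels name separate samples but do not say that each was 1 embryo, and the p-values then measure only the spread between these samples.

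Hox genes encode homeodomain transcription factors that give cells their position along the body axis. They lie in 4 clusters in which the order on the chromosome follows the order of expression from head to tail, so that low paralog numbers mark anterior levels and high numbers mark posterior levels, limb ends and the urogenital region. In blood, mainly HoxA and HoxB genes are used: stem and progenitor cells express Hoxa5, Hoxa7, Hoxa9 and Hoxa10 and several of the HoxB genes, Hoxa9 being best known for keeping progenitors immature, and the genes are shut down as cells mature. Connective tissue, mesothelium and muscle of the trunk and limbs keep a Hox code of their own, set by their level of origin.

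In GRCm38 coordinates, the 11 HoxA genes lie on the minus strand of chromosome 6, and the 10 HoxB genes spanned 173.9 kb (chr11:96194316-96368256), the 9 HoxC genes 115.8 kb (chr15:102921103-103036852) and the 9 HoxD genes 96.8 kb (chr2:74668310-74765142), the last 3 on the plus strand. They were read in 3 groups: the 17 HoxA and HoxB genes with paralog numbers up to 9, the 10 HoxC and HoxD genes with numbers below 10, and the 12 posterior genes with numbers from 10 to 13 of all clusters. A subset of 7 genes, Hoxa5, Hoxa7, Hoxa9, Hoxa10, Hoxb2, Hoxb3 and Hoxb4, stood for the Hox genes usually described in blood progenitors, and includes 1 posterior gene.

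The promoters of 3 HoxA genes are printed because the results turn on them: Hoxa2 was higher in DKO under each alternative that left out a library, Hoxa5 was the called gene with the most counts, and Hoxa9 was the only member lower in every DKO library than in every WT library. Each is the RefSeq window of 300 bases (GRCm38.p6), from 250 bases before the transcription start to 50 after it, on the minus strand of chromosome 6: chr6:52164782-52165081 for Hoxa2, chr6:52204538-52204837 for Hoxa5 and chr6:52227321-52227620 for Hoxa9. The RefSeq start of Hoxa9 lies inside the longer gene that GENCODE gives (chr6:52223100-52231089), and those of Hoxa2 and Hoxa5 are at the GENCODE starts. Capitals mark matches, on either strand, to TGATTNAT, a motif bound by dimers of PBX and HOX proteins, to TGACAG, a motif bound by MEIS proteins, or to AGGTCA, a motif bound by nuclear receptors such as the retinoic acid receptors.
Hoxa2: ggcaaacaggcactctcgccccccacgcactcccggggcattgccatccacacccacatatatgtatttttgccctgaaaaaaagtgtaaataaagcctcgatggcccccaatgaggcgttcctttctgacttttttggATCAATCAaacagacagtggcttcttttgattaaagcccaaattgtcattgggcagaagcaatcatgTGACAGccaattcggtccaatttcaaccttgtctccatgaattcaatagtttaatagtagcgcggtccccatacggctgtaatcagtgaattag
Hoxa5: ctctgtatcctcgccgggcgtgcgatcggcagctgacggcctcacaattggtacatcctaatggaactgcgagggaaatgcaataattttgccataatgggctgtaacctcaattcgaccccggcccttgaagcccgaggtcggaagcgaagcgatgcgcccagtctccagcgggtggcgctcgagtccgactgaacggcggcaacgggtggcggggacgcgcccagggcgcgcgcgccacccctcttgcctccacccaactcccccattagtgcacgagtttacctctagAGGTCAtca
Hoxa9: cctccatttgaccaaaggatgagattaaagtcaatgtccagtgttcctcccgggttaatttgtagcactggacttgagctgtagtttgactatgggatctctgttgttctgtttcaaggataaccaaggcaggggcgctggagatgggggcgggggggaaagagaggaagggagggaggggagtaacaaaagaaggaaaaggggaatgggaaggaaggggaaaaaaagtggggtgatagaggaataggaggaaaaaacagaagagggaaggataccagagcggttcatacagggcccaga
The Hoxa2 window held 1 match to the PBX and HOX motif and 1 to the MEIS motif, the Hoxa5 window 1 match to the nuclear receptor motif, and the Hoxa9 window none of these letters.

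RefSeq gave 24 promoter windows for 22 of the 39 members. TGATTNAT was found in 2 of the 24 (those of Hoxa2 and Hoxd11) and in 3.22% of the 32851 promoters of all genes, TGACAG in 2 of the 24 (Hoxa2 and Hoxa3) and in 19.2% of all, and AGGTCA in 7 of the 24 (Hoxa5, Hoxb4, Hoxc4, Hoxd3, Hoxd4, Hoxd8 and Hoxd10) and in 16.3% of all. The Hox windows had a median GC content of 57.7% and a median ratio of observed to expected CpG of 0.626, and all promoters had 52.7% and 0.384. The members with AGGTCA include Hoxd10, which had no counts in any library, and the motif counts are descriptions of these windows only.

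The libraries held between 36981439 and 50886469 counts in genes. Vps13a, one of the targeted genes, had 1825 to 2109 normalized counts in WT libraries and 607 to 1039 in DKO (edgeR adjusted p = 0.00247), whereas Vps13c, counted over the whole gene, had 538 to 664 in WT and 518 to 1088 in DKO (edgeR adjusted p = 0.182) and so does not check the labels. The 4 WT libraries and DKO replicate 3 expressed the Y-linked Ddx3y (2516 to 3354 normalized counts), and DKO replicates 1, 2 and 4 expressed Xist (18029 to 27043), so that sex largely followed genotype and cannot be told apart from it. DKO replicate 1 stood apart for the Hox genes: it held 10286 counts in Hox genes against 2037 to 2886 in the other DKO libraries and 1510 to 2289 in WT, and it was the highest of the 8 libraries for 23 of the 28 members with any count. For the tested Hox genes that it moved most, values are also given without it.

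Apart from 8 counts of Hoxd11 in 1 library, the axial range of Hox counts in S0 cells ended at Hoxa10. Of the 12 posterior genes, 10 had no counts in any of the 8 libraries (Hoxa11, Hoxa13, Hoxb13, Hoxc10, Hoxc11, Hoxc12, Hoxc13, Hoxd10, Hoxd12 and Hoxd13), which allows up to 3 counts per library. Hoxd11 had 8 counts in DKO replicate 1 and 0 in the others, and Hoxa10 was the only posterior gene detected in WT. Among the lower numbers only Hoxd9 was at 0 in every library, so that 11 of the 39 members had no counts and 28 had some. These posterior genes pattern the lumbar and sacral levels, the far limb and the genital region.

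Before any comparison, the breadth of detection differed between libraries. With at least 10 counts taken as detection, WT replicates 1 to 4 held 12, 7, 16 and 14 of the 39 members, and DKO replicates 1 to 4 held 25, 16, 19 and 20. WT replicate 3 and DKO replicate 2 were thus equal, and the other DKO libraries were above all WT libraries, although 3 of the 4 WT totals exceeded every DKO total. In DKO but not in WT, 5 members had counts: Hoxb8, Hoxb9, Hoxd1, Hoxd8 and Hoxd11.

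**Figure D1:**
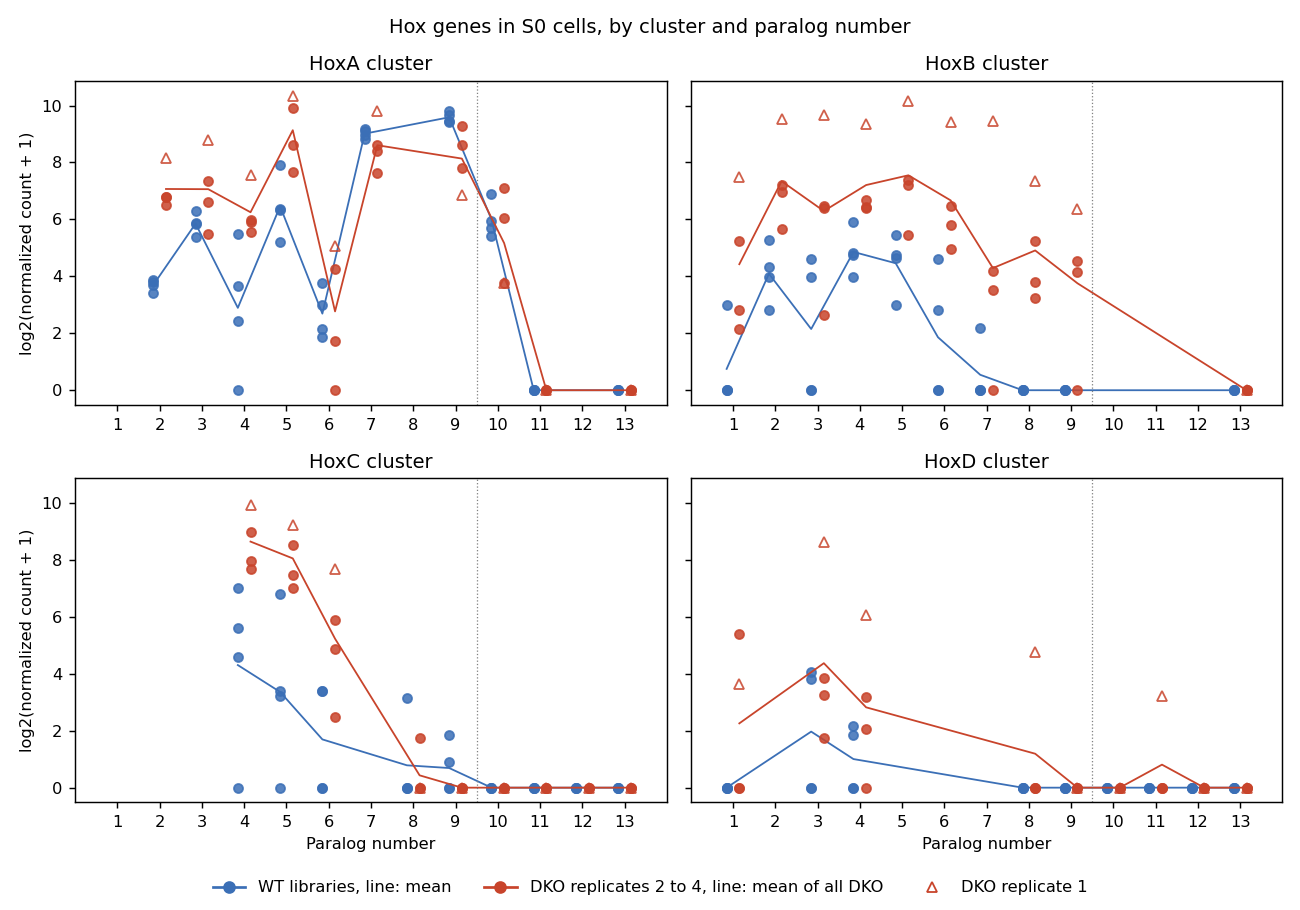
Level of 38 of the 39 Hox genes in each library on a log2(normalized count + 1) axis, by cluster and paralog number, with WT in blue, DKO in red and DKO replicate 1 as open triangles; lines join the means of the log2 values over 4 libraries, and the dotted line separates the posterior genes from the rest. WT points are highest at Hoxa7 and Hoxa9, DKO points are also high at numbers 2 to 6, and all libraries are at 0 beyond Hoxa10 except DKO replicate 1 for Hoxd11.

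WT S0 cells expressed a narrow HoxA profile. Summed over the 39 members, WT replicates 1 to 4 held 1581, 1579, 1988 and 1890 normalized counts, of which HoxA genes made up 89.7% ± 8.39 (SD, n = 4), HoxB genes 5.20% ± 2.71, HoxC genes 4.69% ± 5.70 (1.92% without WT replicate 3) and HoxD genes 0.450% ± 0.523 (0.277% without WT replicate 4). Hoxa7, Hoxa9 and Hoxa10, the genes at the far end of the range, together held 82.3%, 90.1%, 60.1% and 80.0% of the sum. Compared per length, as normalized counts per kilobase of merged exons, the highest WT means were those of Hoxa7 (180), Hoxa9 (138) and Hoxa5 (58.3), followed by Hoxa10 (20.9), Hoxc4 (19.4) and Hoxb4 (12.3). This is the set of HoxA genes known from blood progenitors, with little HoxB.

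In DKO S0 cells the anterior and middle genes of the HoxA and HoxB clusters were higher. By edgeR's quasi-likelihood test with Benjamini-Hochberg adjustment over 17378 genes, 6 of the 39 members were called higher in DKO (adjusted p under 0.05 and log2 fold change above 1): Hoxa2, Hoxa5, Hoxb2, Hoxb4, Hoxb5 and Hoxb6. All 6 were among the 16 members tested, and 6.19% of all genes tested were called higher. No member was called lower, against 2.43% of all genes tested. Of the 16 tested members, 12 in either direction had an unadjusted p under 0.05, and the share of all genes at that threshold was not counted. DESeq2 called 11 of 28 members higher and 1 lower, and over 30390 genes it called 1653 higher and 619 lower. All 6 called genes belong to the group of HoxA and HoxB genes up to number 9, and 3 of the 6 (Hoxa5, Hoxb2 and Hoxb4) to the blood subset, in which Hoxa7, Hoxa9, Hoxa10 and Hoxb3 were not called. The group of HoxA and HoxB genes made up 12 of the 16 members tested. Only 3 HoxC and HoxD genes and 1 posterior gene were tested beside it. The low-count filter left 16 members, 10 of which were not called, and 23 members were not tested. A member can pass that filter through DKO alone, so the 16 do not stand for the whole set.

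The groups did not overlap for 10 members. In 9 of them all DKO libraries exceeded all WT libraries (Hoxa2, Hoxa4, Hoxb2, Hoxb4, Hoxb5, Hoxb6, Hoxc4, Hoxc5 and the untested Hoxb8), and in 1, Hoxa9, all DKO libraries were under all WT libraries. Among the 16 tested members these were 8 and 1, against 13.5% and 14.6% of all genes tested. For these tested members the exact two-sided permutation test over 70 arrangements gave p = 0.0286, the smallest that 4 against 4 allow. Groups that do not overlap give this value by construction, so it adds nothing to the lack of overlap. A mean higher in DKO was found for 18 of the 18 members with numbers 1 to 6, whether tested or not. The cut at number 6 was not fixed beforehand, and DKO replicate 1 was the highest of the 8 libraries for 17 of these 18. Over all members, the mean was higher in DKO for 23 and lower for 5.

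**Figure D2:**
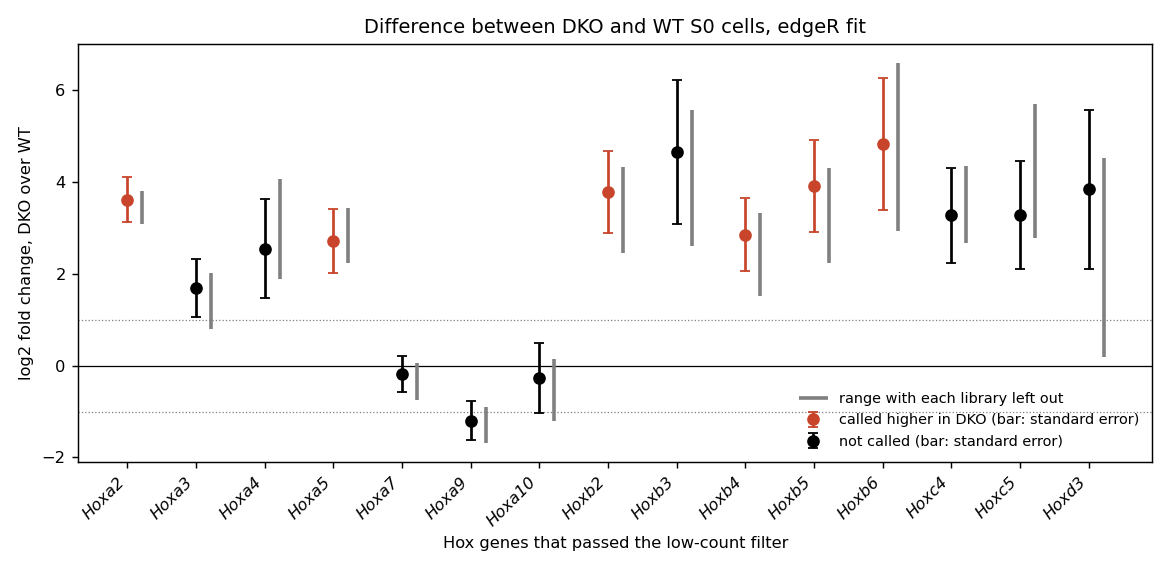
Log2 fold change of DKO over WT (vertical axis) from the edgeR fit for 15 of the 16 Hox genes that passed the low-count filter, with bars for the standard error, red for called genes, and grey lines for the range over the 8 fits that lacked 1 library each; dotted lines mark 1 and -1. Hoxa2 has the shortest bar among the 6 called genes, and Hoxa7, Hoxa9 and Hoxa10 are the only points below 0.

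Hoxa2 (ENSMUSG00000014704.10, chr6:52162417-52164831), which patterns the hindbrain and the second branchial arch, had 13.6, 12.0, 13.03 and 9.62 normalized counts in WT replicates 1 to 4 and 285, 110, 110 and 90.9 in DKO replicates 1 to 4. Its log2 ratio of DKO to WT was 3.61 (standard error, SE, 0.48, edgeR adjusted p = 0.00265). The WT libraries lay close together and far below the DKO libraries. Its call held in all 8 fits that lacked 1 library each, with log2 ratios from 3.09 (without DKO replicate 1) to 3.79. Its promoter window, printed above, carried the motifs of PBX and HOX dimers and of MEIS proteins.

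Hoxa5 (ENSMUSG00000038253.6, chr6:52201754-52204587), which acts in lung, gut and cervical mesoderm and in blood progenitors, had 81.7, 36.1, 239.8 and 80.4 normalized counts in WT libraries and 1298, 201, 971 and 389 in DKO. The lowest DKO library, replicate 2, was below the highest WT library, replicate 3. The log2 ratio was 2.70 (SE 0.70, edgeR adjusted p = 0.0239), and the exact two-sided permutation test gave p = 0.0571. The adjusted p rose to at most 0.0781 without WT replicate 1, 2 or 4, and with DKO replicate 1 left out the log2 ratio was 2.24 (edgeR adjusted p = 0.0476).

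The other anterior HoxA genes moved less uniformly. Hoxa4 had 11.5, 0, 44.3 and 4.37 normalized counts in WT libraries and 187.0, 59.3, 46.4 and 61.6 in DKO, a log2 ratio of 2.55 (SE 1.07, edgeR adjusted p = 0.119), and WT replicate 3 almost reached the lowest DKO library. Without DKO replicate 1 its log2 ratio was 1.88 (edgeR adjusted p = 0.25). Hoxa3, a gene of the pharyngeal arches and thymus, had 40.8, 76.6, 58.2 and 56.8 in WT and 444.5, 96.5, 162.4 and 43.9 in DKO (log2 ratio 1.68, edgeR adjusted p = 0.0866). Its DKO replicate 4 lay inside the WT range, and without DKO replicate 1 the log2 ratio was 0.79 (edgeR adjusted p = 0.258). Hoxa6 was at or below 12.6 in WT and 32.6 in DKO and was not tested. The annotated span of Hoxa3 covers Hoxa4, Hoxa5 and Hoxa6, and an antisense gene, Hoxaas3, overlaps all 4 and Hoxa7, so the division of counts among them is uncertain.

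Hoxa9 (ENSMUSG00000038227.15, chr6:52223100-52231089), the HoxA gene best known from blood progenitors and leukaemia, lay lower in DKO. It had 705, 803, 683 and 899.6 normalized counts in WT libraries and 115, 621, 393 and 220 in DKO, a log2 ratio of -1.20 (SE 0.43, edgeR adjusted p = 0.0752). It was thus not called. The exact two-sided permutation test gave p = 0.0286, which follows from the lack of overlap. Leaving out DKO replicate 2, its highest DKO library, gave -1.68 (edgeR adjusted p = 0.0198), and DESeq2 gave -1.21 (adjusted p = 0.0197). With DKO replicate 1, its lowest library, left out, the log2 ratio was -0.90 (edgeR adjusted p = 0.0639). Hoxa9 was not called in 7 of the 8 fits that lacked 1 library each, with an edgeR adjusted p of at most 0.170.

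Hoxa7 and Hoxa10, on either side of Hoxa9, did not show a difference beyond their spread. Hoxa7 (chr6:52214491-52221854) had 546, 578, 452 and 493 normalized counts in WT libraries and 895, 387, 195 and 335 in DKO, a log2 ratio of -0.19 (SE 0.39, edgeR adjusted p = 0.771). DKO replicate 1 was the highest of the 8 libraries and the other DKO libraries were below all WT libraries, and with DKO replicate 1 left out the log2 ratio was -0.75 (edgeR adjusted p = 0.0574). Hoxa10 had 51.3, 42.2, 60.8 and 119 in WT and 12.6, 137, 64.7 and 12.54 in DKO (log2 ratio -0.27, SE 0.77, edgeR adjusted p = 0.835). DKO replicates 1 and 4 were below all WT libraries for Hoxa10, and DKO replicate 2 was above them. The ratio of Hoxa5 to Hoxa9 counts, which sets a more anterior against a more posterior member of the blood subset, was 0.116, 0.0450, 0.351 and 0.0894 in WT and 11.3, 0.324, 2.47 and 1.76 in DKO, so that only DKO replicate 2 lay in the WT range. The pair sets a gene called higher against the member lower in every DKO library, so a higher ratio in DKO follows in part from that choice.

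HoxB genes were nearly silent in WT and were highest in DKO replicate 1. Hoxb2 (ENSMUSG00000075588.6, chr11:96350525-96354012), a gene of the hindbrain that blood progenitors also use, had 18.8, 6.02, 37.4 and 14.9 normalized counts in WT libraries and 741, 49.98, 148 and 122 in DKO (log2 ratio 3.77, SE 0.90, edgeR adjusted p = 0.0179). Hoxb4 (ENSMUSG00000038692.8, chr11:96318267-96321638), known for expanding blood stem cells when forced on, had 26.2, 14.6, 26.9 and 58.6 in WT and 646, 101, 83.0 and 84.6 in DKO (log2 ratio 2.85, SE 0.80, edgeR adjusted p = 0.0322). In both, all DKO libraries exceeded all WT libraries and DKO replicate 1 was several times the next.

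Hoxb5 (ENSMUSG00000038700.4, chr11:96303336-96306121), a marker of long-term blood stem cells that is also expressed in gut and lung mesenchyme, had 24.1, 6.89, 42.6 and 26.2 normalized counts in WT libraries and 1149, 43.0, 145 and 165 in DKO (log2 ratio 3.91, SE 1.01, edgeR adjusted p = 0.0239). WT replicate 3 and DKO replicate 2 were all but equal for it. Hoxb6 (ENSMUSG00000000690.5, chr11:96292476-96301569), a gene of trunk and limb mesoderm, had 0, 0, 23.5 and 6.12 in WT and 689, 54.6, 87.9 and 30.3 in DKO (log2 ratio 4.82, SE 1.43, edgeR adjusted p = 0.0401). With DKO replicate 1 left out, the log2 ratios were 2.46 for Hoxb2 (edgeR adjusted p = 0.0227) and 2.23 for Hoxb5 (edgeR adjusted p = 0.0350), and the calls of Hoxb4 (1.51, edgeR adjusted p = 0.0541) and Hoxb6 (2.93, edgeR adjusted p = 0.124) were lost. Without WT replicate 1, 2 or 4 none of these 4 genes was called, with an edgeR adjusted p of at most 0.112, and without WT replicate 3 the call of Hoxb4 was lost as well (edgeR adjusted p = 0.0779).

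Hoxb3, the remaining HoxB gene of the blood subset, had 0, 0, 23.5 and 14.9 normalized counts in WT libraries and 807, 83.7, 87.9 and 5.22 in DKO (log2 ratio 4.65, SE 1.57, edgeR adjusted p = 0.0616). DKO replicate 4 was below 2 WT libraries, so the groups overlapped, and without DKO replicate 1 the log2 ratio was 2.60 (edgeR adjusted p = 0.209). Hoxb1, Hoxb7 and Hoxb8 did not pass the filter. Hoxb1, a gene of the fourth hindbrain segment, had 0, 0, 0 and 6.99 in WT and 178, 3.49, 6.10 and 36.6 in DKO, and Hoxb7 had 0, 0, 0 and 3.50 in WT and 706, 0, 17.1 and 10.4 in DKO. Nearly all Hoxb7 counts thus came from DKO replicate 1.

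Hoxb8, a gene of the trunk whose forced expression arrests myeloid progenitors, was at 0 in all 4 WT libraries and had 164, 12.8, 8.55 and 36.6 normalized counts in DKO. Against a floor of 3 counts per library its mean was at least 20.3-fold higher in DKO, and at least 7.05-fold higher without DKO replicate 1. Hoxb9 was also at 0 in WT and reached 80.9, 0, 22.0 and 16.7 in DKO, at least 10.9-fold higher and, without DKO replicate 1, at least 4.71-fold higher. With no low-count filter, edgeR gave Hoxb8 an adjusted p of 0.0154 and Hoxb9 one of 0.0422, and the call of Hoxb6 was lost (edgeR adjusted p = 0.0716). The HoxB cluster was therefore detected in DKO up to number 9, as far as its last gene before Hoxb13.

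In the HoxC cluster the 3 most anterior genes, Hoxc4, Hoxc5 and Hoxc6, held nearly all counts. Hoxc4 (chr15:103018934-103036852), a gene of the cervical and upper thoracic level, had 23.0, 0, 129 and 48.1 normalized counts in WT libraries and 977, 246, 509 and 206 in DKO, a log2 ratio of 3.27 (SE 1.04, edgeR adjusted p = 0.0501). Hoxc5 had 8.38, 0, 111 and 9.62 in WT and 597, 127, 367 and 176 in DKO (log2 ratio 3.28, SE 1.17, edgeR adjusted p = 0.0747). Neither was called, and for both all DKO libraries exceeded all WT libraries. WT replicate 3 was the library that came nearest to DKO, and without it the edgeR adjusted p was 0.0350 for Hoxc4 and 0.0116 for Hoxc5. Without DKO replicate 1 the log2 ratios were 2.67 for Hoxc4 (edgeR adjusted p = 0.112) and 2.77 for Hoxc5 (edgeR adjusted p = 0.153).

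Hoxc6 had 9.42, 0, 9.56 and 0 normalized counts in WT libraries and 202, 4.65, 58.6 and 28.2 in DKO and was not tested. Hoxc8 and Hoxc9 had at most 9 counts in any library, all but 2 of the counts in WT, and the more posterior HoxC genes were at 0. The annotated span of Hoxc5 covers Hoxc6, Hoxc8 and Hoxc9 and overlaps part of Hoxc10 on the same strand, so the division of counts between Hoxc5 and these genes is uncertain. In DKO the HoxC cluster thus had more than 2 counts only up to number 6.

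HoxD genes were low throughout. Hoxd3 had 0, 0, 13.03 and 15.7 normalized counts in WT libraries and 396, 2.32, 8.55 and 13.6 in DKO (log2 ratio 3.83, SE 1.72, edgeR adjusted p = 0.140), and with DKO replicate 1 left out the log2 ratio fell to 0.18. Hoxd4 reached 3.47 in WT and 65.1, 8.14, 0 and 3.13 in DKO, and Hoxd8 had 26.3 in DKO replicate 1 only. Hoxd1 was at 0 in WT and had 11.6, 0, 0 and 40.7 in DKO, the one HoxD gene with its highest value outside DKO replicate 1. Most HoxD counts thus came from 1 library.

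**Figure D3:**
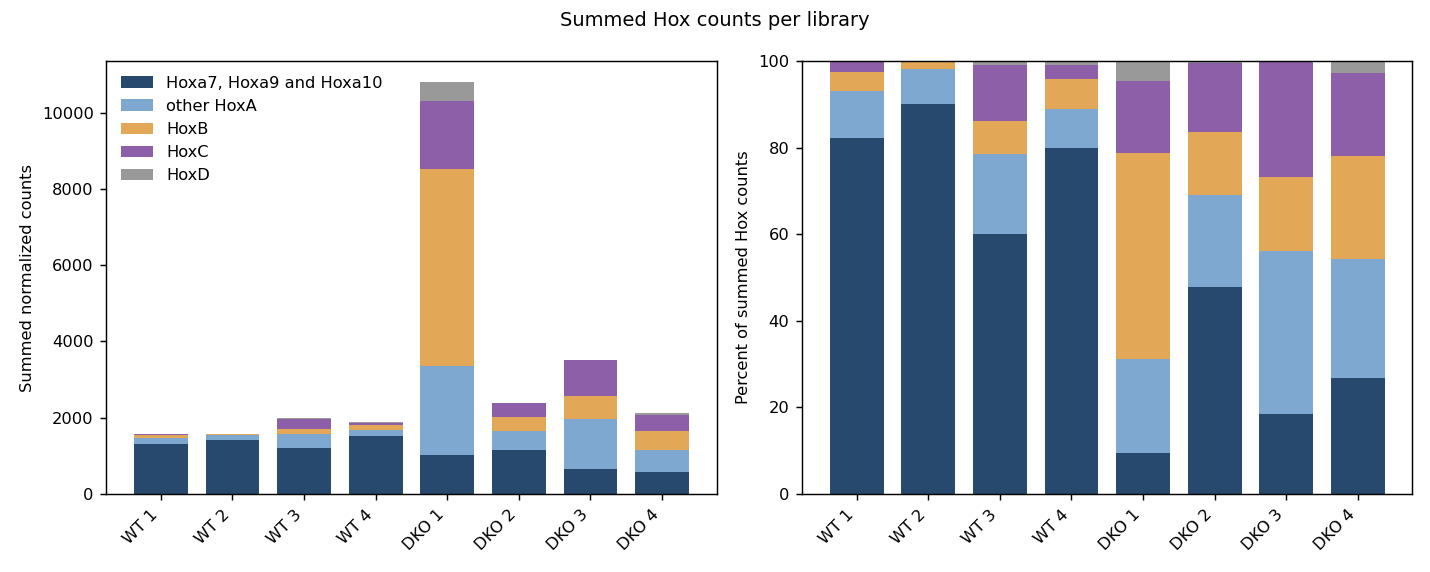
Summed normalized counts of the Hox genes per library (left, linear axis from 0) and the percent of that sum (right), stacked as Hoxa7, Hoxa9 and Hoxa10, the other HoxA genes, HoxB, HoxC and HoxD. The dark blue part spans 60.1% to 90.1% in WT libraries and 9.46% to 47.8% in DKO libraries, and DKO replicate 1 has a sum of 10808. The dark blue genes are the tested ones with a log2 ratio below 0, so their smaller part in DKO follows partly from that choice.

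Taken as shares, the Hox composition of DKO libraries was more even across clusters. HoxA genes made up 31.1%, 69.2%, 56.0% and 54.2% of the Hox sum in DKO replicates 1 to 4, a mean of 52.6% ± 15.8 (SD, n = 4), and every WT library was at 78.5% or above. HoxB genes made up 25.8% ± 15.1 (18.5% without DKO replicate 1) and HoxC genes 19.5% ± 4.91 in DKO. Of the 3 groups, the HoxA and HoxB genes up to number 9 held 91.0% ± 6.17 in WT and 76.4% ± 3.39 in DKO, and the HoxC and HoxD genes below number 10 held 5.14% ± 6.03 in WT (2.25% without WT replicate 3) and 21.5% ± 4.30 in DKO. The blood subset held 87.4% ± 7.48 of the sum in WT and 54.4% ± 9.90 in DKO, and the groups did not overlap. The posterior genes, in effect Hoxa10, held 3.82% ± 1.67 in WT and 2.09% ± 2.52 in DKO (0.873% without DKO replicate 2), with overlap. These shares are descriptions with no test, and they depend on one another.

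By paralog number, the low numbers held more of the sum in DKO. The cut at number 6 used here was not fixed beforehand. Genes numbered 1 to 6 held 17.7%, 9.86%, 39.4% and 19.7% of the Hox sum in WT and 81.4%, 51.6%, 80.1% and 70.3% in DKO. Per length, the means were 30.0% ± 16.4 in WT and 76.6% ± 9.86 in DKO. In absolute terms the same genes summed to 280, 156, 784 and 372 normalized counts in WT libraries and 8800, 1237, 2823 and 1496 in DKO, so that each DKO library was above each WT library. Hoxa7, Hoxa9 and Hoxa10, the tested genes with a log2 ratio below 0, together summed to 1302, 1423, 1195 and 1512 in WT and to 1022, 1145, 653 and 568 in DKO, each DKO library below each WT library. These genes were grouped by the sign of that ratio, so a lower sum in DKO follows in part from the choice. Of the other genes with numbers 7 to 9, Hoxb7, Hoxb8, Hoxb9 and Hoxd8 had higher means in DKO, as given above. Hoxc8 and Hoxc9, with at most 9 counts in any library, had lower ones. Over all clusters the genes numbered 7 summed to a mean of 518 normalized counts in WT and 637 in DKO (315 without DKO replicate 1), those numbered 8 to 1.95 and 62.6, and those numbered 9 to 773 and 367. Because the RNA came from bulk samples, fewer cells of a type and less RNA per cell cannot be told apart.

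Per length, the order of the genes changed between genotypes. In DKO the highest means per kilobase were those of Hoxa5 (381 normalized counts per kilobase), Hoxc4 (189), Hoxa7 (158), Hoxb5 (135), Hoxb7 (119), Hoxb6 (110) and Hoxc5 (103), and Hoxa9 had 60.4. The HoxB means rest largely on DKO replicate 1. Without it, the summed Hox level of DKO was 2683 normalized counts on average against 1760 in WT, and HoxA genes held 59.8% of it.

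Hox proteins bind DNA with cofactors of the MEIS, PBX and PKNOX families. Of 9 cofactor genes, all tested, 2 were called higher and none lower, with a median log2 ratio of 0.45 against 0.03 for all genes tested. Meis2, expressed in mesenchyme and neural tissue, had 212, 164, 242 and 268 normalized counts in WT libraries and 6036, 867, 671 and 977 in DKO (log2 ratio 3.27, edgeR adjusted p = 0.0127). Meis3 had 80.6 to 175 in WT and 247 to 990 in DKO (log2 ratio 2.16, edgeR adjusted p = 0.0122). Meis1, the cofactor that acts with Hoxa9 in blood progenitors, had 5261 ± 565 in WT and 4886 ± 2082 in DKO (SD, n = 4; log2 ratio -0.11, edgeR adjusted p = 0.791), and Pbx2 (0.18, edgeR adjusted p = 0.169) did not pass the test either.

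The Trithorax group and its partners keep Hox genes on, and Polycomb complexes keep them off. None of the 20 activator genes was called by edgeR or by DESeq2, although 13 had an unadjusted p under 0.05 with edgeR, and the median log2 ratio was 0.09. With no fold threshold, 4 were higher, among them Kmt2a, the methyltransferase also called MLL1 (log2 ratio 0.62, edgeR adjusted p = 0.0229), and Kdm6b (0.97, edgeR adjusted p = 0.00821), and 3 were lower, among them Men1, which tethers KMT2A to chromatin (-0.66, edgeR adjusted p = 0.00439), and Kat7 (-0.53, edgeR adjusted p = 0.00428). Of all genes tested, 10.7% were higher and 10.8% were lower with no fold threshold. The share of all genes with an unadjusted p under 0.05 was not counted. Of 21 Polycomb genes 1 was called, Cbx7 (log2 ratio 1.53, edgeR adjusted p = 0.00531), with a median of -0.01 over the list, and without DKO replicate 1 another 1 was called lower. Ezh2, the methyltransferase of the complex, had a log2 ratio of 0.13 (edgeR adjusted p = 0.235).

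Retinoic acid and CDX factors start Hox expression in the embryo. Of 19 axial patterning genes, 10 were tested and 2 were called, both of the retinoic acid pathway and both higher. Aldh1a2, which makes retinoic acid and is expressed in trunk mesoderm and mesothelium, had 18.8, 15.5, 15.6 and 9.62 normalized counts in WT libraries and 907, 61.6, 360.2 and 121 in DKO (log2 ratio 4.60, SE 0.83, edgeR adjusted p = 0.00659). Rarb, a retinoic acid receptor that is itself a target of retinoic acid, had 22.4 to 52.5 in WT and 60.6 to 279 in DKO (log2 ratio 2.34, edgeR adjusted p = 0.0256). Cdx1, Cdx2 and Cdx4, the factors of the posterior embryo, were at 0 in every library.

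Of the annotated genes inside the clusters other than the 39 members, 2 were called higher in DKO. Of these 46 genes, taken whatever their type, 22 were at 0 in every library, among them Hotair of the posterior HoxC cluster and the miRNA genes Mir10a and Mir10b, and 8 were tested. Called were Hotairm1, which starts near Hoxa2 (27.2, 25.0, 37.4 and 28.9 normalized counts in WT libraries and 408, 79.0, 178 and 124 in DKO, log2 ratio 2.73, edgeR adjusted p = 0.00815), and Hoxb3os, antisense to Hoxb3 (0, 0, 6.95 and 16.6 in WT and 156, 58.1, 56.2 and 65.8 in DKO, log2 ratio 3.79, edgeR adjusted p = 0.0382). In both, all DKO libraries exceeded all WT libraries. Without DKO replicate 1 only 1 gene of the list was called, and with DESeq2 6 of the 46 were called higher. In all, 14 of the 39 members overlap a gene on the opposite strand, and whether counting used strand is not given in the sources used here, so that sense and antisense counts of these members cannot be told apart.

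Few genes beside the clusters were called. Of the 40 protein-coding genes that were the 5 nearest tested ones on each side of each cluster, 2 were called higher, Creb5 (log2 ratio 3.22, edgeR adjusted p = 0.0214) and Tril (5.04, edgeR adjusted p = 0.0233), both on the side of Hoxa13 and 1026 and 1555 kb from the cluster. The list's median was -0.05. On the other clusters no neighbour was called.

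Region-specific factors of mesoderm, which mark limb bud, heart, gut wall and body wall, were higher in DKO together with the Hox genes. Of 24 such genes, 15 were tested, and 9 of the 24 were called higher and none lower, among them Prrx1, Barx1, Hand2, Tbx5, Isl1, Tbx18, Foxf1 and Tbx2. The median log2 ratio was 3.91 over the tested genes, and without DKO replicate 1 the count was 5. Foxf1, a factor of gut and liver mesenchyme, had 26.2, 27.5, 42.6 and 22.7 normalized counts in WT libraries and 1012, 119, 111 and 111 in DKO (log2 ratio 3.50, edgeR adjusted p = 0.0169). Tbx5, of the forelimb and heart field, had 0 to 20.8 in WT and 131, 30.2, 162 and 101 in DKO (log2 ratio 3.14, edgeR adjusted p = 0.0407). The hindlimb gene Tbx4 had 9.56 in WT replicate 3, 22.1 in DKO replicate 1 and 0 in the rest, and the hindlimb gene Pitx1 had 944 in DKO replicate 1 and at most 23.2 elsewhere.

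Of the markers of cells other than blood progenitors, most of those of liver mesenchyme, mesothelium and muscle were called higher in DKO. Of 19 liver mesenchyme markers 14 were called higher (10 without DKO replicate 1), with a median log2 ratio of 2.42, and the list summed to 32395 to 45409 normalized counts in WT libraries and 48110 to 136618 in DKO. Of 9 mesothelium markers 7 were called higher (5 without DKO replicate 1), with a median of 3.68 and sums of 1650 to 2750 in WT and 3795 to 6789 in DKO. Of 9 muscle markers 6 were called higher, with sums of 290 to 883 in WT and 1446 to 4909 in DKO, and of 12 neural and neural crest markers 2 (1 without DKO replicate 1), Nefl and Nefm, with sums of 141 to 355 in WT and 537 to 7094 in DKO. No defining marker of mesenchyme was at 0 in WT: Pdgfra had 103, 34.4, 209 and 124 normalized counts there and 2821, 564, 860 and 998 in DKO, and Col1a1 had 1114, 537, 2411 and 1580 in WT and 13055, 4389, 4102 and 6617 in DKO. Msln of the mesothelium and Sox2 of neural tissue were at 0 in every WT library. The lists share Des (mesenchyme and muscle) and Tbx18 (mesothelium and mesoderm factors). The part of these cell types in the Hox differences was not tested.

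The libraries did not take 1 order over the marker lists. The progenitor list summed to 59111, 98748, 86316 and 82168 normalized counts in DKO libraries, lowest in replicate 1 and highest in replicate 2. The mesenchyme list summed to 136618, 68518, 48110 and 75564 in DKO, highest in replicate 1 and lowest in replicate 3, and the mesothelium list to 5634, 3795, 6789 and 4118, highest in replicate 3 and lowest in replicate 2. Such sums weigh abundant genes most, and single markers can differ: among the DKO libraries Col1a1 was lowest in replicate 3 but Pdgfra in replicate 2. Hoxa5 was highest in DKO replicate 1, as the mesenchyme list was, and lowest in DKO replicate 2, as the mesothelium list was. In WT, Hoxa5 (replicates 1 and 4 nearly equal) and the mesothelium list took the same order, replicate 3, then 1, 4 and 2. The muscle list took that order in both genotypes. WT replicate 3 had the highest WT sum of the mesenchyme and mesothelium lists. It was also the highest WT library for 11 of the 23 members with counts in WT. With 4 libraries a genotype, these orders are values and not tests.

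Several blood progenitor markers were lower in DKO. Of 20 such markers, 1 of which, Meis1, is also counted among the cofactors, 7 were called lower and none higher: Flt3, Cd34, Erg, Mpo, Kit, Cd48 and Hlf. With no fold threshold 10 were lower and 1 was higher, Lmo2, a cofactor of blood transcription factors (log2 ratio 0.58, edgeR adjusted p = 0.00963). Among all genes tested, 10.8% were lower and 10.7% higher in that way. The list, with a median log2 ratio of -0.63, summed to 172674 to 215757 normalized counts in WT libraries and to 59111 to 98748 in DKO, and 7 were also called without DKO replicate 1. Cd34, a surface protein of progenitors, had 13701, 14958, 11776 and 16838 in WT and 722, 6171, 3589 and 4492 in DKO (log2 ratio -1.94, edgeR adjusted p = 0.0229). The part of these cells in the Hoxa9 values was not tested.

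The other lists had fewer called genes. Of 17 erythroid markers 2 were called higher (1 without DKO replicate 1), the embryonic globins Hbb-bh1 and Hba-x, and none of the list was at 0 in every library. Of 12 endothelial markers 1 was called lower (Pecam1), and of 8 macrophage markers 1 was called lower (Adgre1), and each count was 2 without DKO replicate 1. Of 16 hepatoblast markers none was called by edgeR, although 6 had an unadjusted p under 0.05 and DESeq2 called 3 lower, and the list summed to 164002 to 594448 normalized counts in DKO against 497250 to 689603 in WT. Hepatoblasts derive from endoderm, and none of their markers was called higher by either tool.

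**Figure D4:**
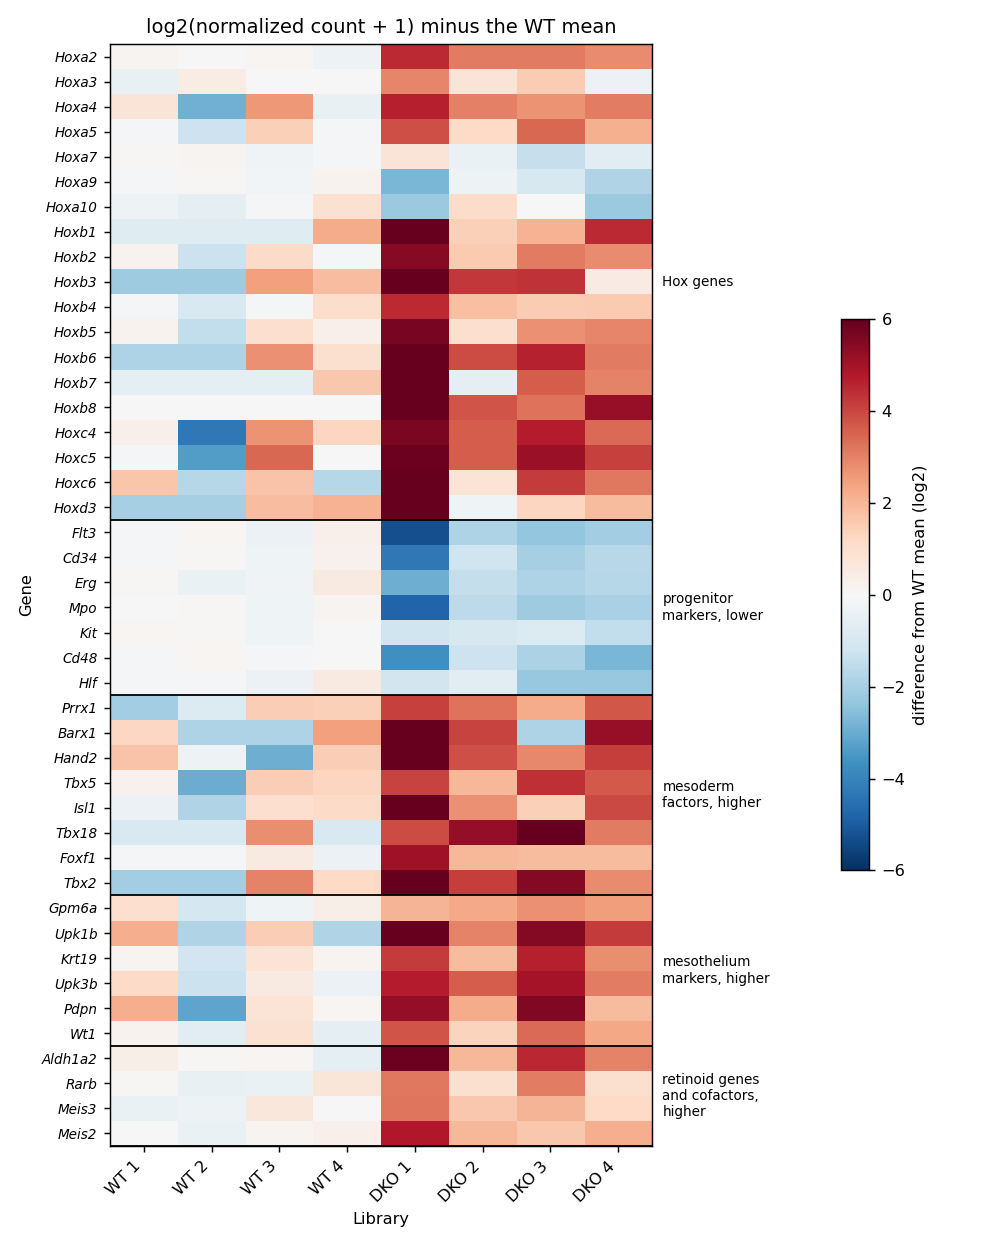
Difference of log2(normalized count + 1) from the WT mean in each of the 8 libraries for the 19 Hox genes described by library and for called genes of 5 other lists, on a colour scale that ends at 6 in either direction. The Hox rows other than Hoxa7, Hoxa9 and Hoxa10 are red in most DKO columns and darkest in DKO replicate 1, as are mesoderm factors, and the progenitor rows are blue in the 4 DKO columns.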

How the data were processed

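Fetal liver S0 cells were measured by RNAseq in 4 WT and 4 DKO samples. The authors trimmed reads with fastp 0.21.0, mapped them to mm10, the same build as GRCm38, with HISAT2 2.2.1, removed alignments with a quality below 20, and deposited a table of whole-number gene counts from StringTie 1.3.3b and its prepDE script. These counts were neither normalized nor pooled. The script works back from coverage, so totals can differ from numbers of reads. Groups and replicate numbers came from the sample labels and columns were matched by name.

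Of 52636 identifiers, 52489 matched a symbol in GENCODE vM21 with the version dropped. The members and gene lists were chosen with earlier results of these data known. The tests used edgeR 4.0.16 in R 4.3.3 (filterByExpr, TMM scaling, robust quasi-likelihood test, Benjamini-Hochberg adjustment, no covariate). Genes were called whose log2 fold change (log2 ratio of DKO to WT) was beyond 1 or -1 with an adjusted p under 0.05. Normalized counts were obtained by dividing counts by the effective library size and multiplying by its mean over libraries. For single members, log2 CPM with a prior count of 2 was compared by an exact two-sided permutation test. Levels between genes were compared per kilobase of merged exons. Values by library were given for each member that was called, in the blood subset, or at a mean of at least 1 CPM in WT or DKO, and the rest by range. Of the lists, called genes and Meis1, Pbx2, Kmt2a, Men1 and Ezh2 could be named; Kdm6b, Kat7, Lmo2, Tbx4, Pitx1, Cdx1, Cdx2, Cdx4, Hotair, Mir10a, Mir10b, Msln and Sox2 were named after their values were seen, and some genes are counted in the totals but not reported here by name. No libraries of a genotype were copies, the lowest chi-square per gene being 17.5. In simulated counts on the 17378 genes tested, 71 of 100 genes changed by 1.5 and 82 of 100 changed by 3 on the log2 scale were called, and 4 of 17178 unchanged genes were called. At these totals the spread between libraries, and for low members also the counting error, limits the precision. Other settings tried were DESeq2 1.42.0, scaling by library size alone or by upper quartiles, other low-count filters, no fold threshold, a replicate block and each library left out in turn.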

Additional observations from a re-analysis of the deposited data

Results flagged for a closer look

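In groups of 4 libraries, the gap between the highest or lowest library and its nearest neighbour was divided by the range of the group, for the 19 members described by library and each genotype, 35 groups in all. A share above Dixon's critical value for 4 values was taken as a library far from the others, which chance gives for about 1 in 20 groups. DKO replicate 1 lay far above the other DKO libraries for 9 members: Hoxa2 (0.899), Hoxa4 (0.892), Hoxb2 (0.858), Hoxb3 (0.897), Hoxb4 (0.968), Hoxb5 (0.890), Hoxb6 (0.913), Hoxb7 (0.976) and Hoxd3 (0.971). Hoxa5, Hoxc4, Hoxc5 and Hoxc6 were also highest in DKO replicate 1 but not by such a gap. WT replicate 3 lay far above the other WT libraries for Hoxc5 (0.914).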

How the results depend on the processing

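Low counts in WT limit most members: 23 of 39 were not tested, and 1 library, DKO replicate 1, sets the size of the HoxB and HoxD differences. The 6 Hox genes called higher became 3 with at least 10 counts in every library, where 7 members were tested, 11 with DESeq2, where 28 were tested and Hoxb4, Hoxb7 and Hoxd3 got no adjusted p, and 2 to 9 over the fits that each lacked 1 library (2 without WT replicate 1 or 4, 3 without WT replicate 2). The 0 called lower became 1, Hoxa9, with DESeq2 and 0 to 1 with libraries left out (1 without DKO replicate 2). Over all genes, the 1076 called higher became 1653 with DESeq2, 1867 with no fold threshold and 566 to 1148 with libraries left out, and the 423 called lower became 1878 with no fold threshold and 243 to 521 with libraries left out. Over the gene lists, the 47 called higher became 29 with at least 10 counts in every library and 27 to 48 with libraries left out, and the 9 called lower became 14 with DESeq2, 21 with no fold threshold and 6 to 12 with libraries left out. The sign turned for Hoxa7 without DKO replicate 3 and for Hoxa10 without WT replicate 4 (log2 ratio 0.14), DKO replicate 1 (0.075) or DKO replicate 4 (0.076), neither gene being called, and over the libraries left out Hoxa7 ranged from -0.75 to 0.063 and Hoxa10 from -1.20 to 0.14. Of 229 alternative values for the 16 tested members, 192 kept sign and side of the threshold, 21 lost and 12 gained a call and 4 turned; the cause was not tested. The shares of clusters and groups moved by less than 1 SD under each alternative run, but small shares with large SDs moved by over 1.5 times: in WT, HoxC from 4.69% to 1.92% and HoxC with HoxD below number 10 from 5.14% to 2.25% without WT replicate 3 and HoxD from 0.450% to 0.277% without WT replicate 4, and in DKO, the posterior genes from 2.09% to 0.873% without DKO replicate 2 and HoxD from 2.02% to 1.13% without DKO replicate 1.

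Same-numbered WT and DKO libraries did not deviate together (correlations of -0.102, 0.0535, -0.0276 and -0.00717). The labels do not say whether the numbers pair the samples, and correlations over so few libraries cannot settle it. With a replicate block, 5 Hox genes were called higher (Hoxa2, Hoxa5, Hoxb2, Hoxb5 and Hoxc5), 0 lower, and 613 of all genes were called higher.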

Other observations

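Other mesoderm factors called higher differed in which DKO library held most of their counts. Isl1, of the heart field and hindlimb, had 15.7, 5.16, 41.7 and 46.3 normalized counts in WT libraries and 1655, 143, 56.2 and 332 in DKO (log2 ratio 4.32, edgeR adjusted p = 0.0227). For it, DKO replicate 1 was the highest library and the genotypes did not overlap. Barx1, a factor of stomach mesenchyme, had 1500 in DKO replicate 1 but 0 in DKO replicate 3, with 58.1 and 134 in the other DKO libraries and 0 to 18.4 in WT (log2 ratio 6.02, edgeR adjusted p = 0.0469). Tbx18, of the epicardium and mesothelium, was instead highest in DKO replicate 3, with 27.3, 72.1, 184 and 15.7 in DKO, and was at 0 in 3 of the 4 WT libraries (log2 ratio 4.54, edgeR adjusted p = 0.0477).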
